A study of Mus musculus with 48 samples.

Results

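NK cells are innate lymphocytes of the spleen and other tissues that kill infected or transformed cells. The 10 genes described here encode receptors and proximal signalling proteins of the route that switches these cells on. They are Ncr1 (the receptor NKp46), Fcgr3 (the IgG receptor CD16), the adaptors Fcer1g, Tyrobp, Hcst and Cd247, the kinases Syk and Zap70, and the scaffolds Lat and Lcp2. They were taken by gene symbol from the 24328 symbols counted in every library, and all 10 passed the filter on low counts in every fit. The receptors carry no signalling motif of their own. NKp46 signals through Fcer1g and Cd247 chains, mouse CD16 through Fcer1g, and several activating lectin-like receptors through Tyrobp (DAP12), whose cytoplasmic tails hold immunoreceptor tyrosine-based activation motifs (ITAMs). Once these are phosphorylated, Syk and Zap70 bind them and phosphorylate Lat and Lcp2 (SLP76), which assemble the complexes that raise calcium and release cytotoxic granules. Hcst (DAP10), the partner of NKG2D, lacks an ITAM and recruits phosphoinositide kinase instead.

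RNA sequencing of NK cells sorted from mouse spleen gave 48 libraries in 14 groups, from 3 experiments. In the conditional experiment the animals labelled cWT carried the Ncr1Cre driver alone, and those labelled cKO carried Ncr1Cre with the floxed Bach2 allele (Bach2flox/flox). Cre therefore came from the locus of a gene described here, and controls carried it too. For either genotype, 3 libraries each came from a fraction called NK and from the fractions iNK, mNK1 and mNK2. By usual naming iNK are immature and mNK mature NK cells, but the gates and the makeup of the fraction labelled NK are not given in the sources used here. In the chimera experiment, WT and Bach2-KO NK cells came from spleens of mice rebuilt with mixed WT and Bach2-KO bone marrow, with 4 libraries of each genotype. In the WT subset experiment, iNK, mNK1, KLRG1- mNK2 and KLRG1+ mNK2 cells of WT mice gave 4 libraries each. Ages, the Cre construct and whether replicates were separate animals are not given in the sources used here, and the p-values therefore rest on a spread between libraries that may be technical.

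Library totals were 13650636 to 21029172 counts in the conditional experiment, 8973777 to 11924274 for the WT subsets and 8557018 to 12927472 for chimera libraries. The ribosomal transcript Rn45s made up 0.089% to 0.36% of a conditional library, 18.6% to 29.1% of a WT subset library and 20.04% to 25.8% of a chimera library. Levels are library-size-scaled counts (CPM), computed within each experiment, so they were not compared between experiments. All 10 NK identity markers examined, among them Klrb1c, Eomes and Prf1, had counts in all 14 groups. Bach2, the targeted gene, was at 2.11 ± 0.927 CPM (SD, n = 4) in chimera KO and 15.5 ± 2.21 (n = 4) in chimera WT libraries. In the conditional experiment it did not show the labelled loss: averaged over the 3 stages it was higher in the libraries labelled cKO by 0.71 ± 0.13 on the log2 scale (SE; by edgeR, adjusted p = 0.0028). Counts over the whole gene may not show a deletion of part of it, and the cause of the higher counts was not tested. Directions in that experiment are therefore those between labels.

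The promoters of 4 of the genes are shown because the results turn on them: Ncr1 as the locus of the Cre driver, Fcer1g as the adaptor with the smallest adjusted p between WT mNK1 and iNK, and Syk and Zap70 as a kinase pair whose levels moved apart. RefSeq (GRCm38.p6) gave a window from 250 bases before to 50 after a start site for 9 of the 10 genes, and the most upstream window of each gene is printed on the gene's strand. Capitals mark matches on either strand to the letters TGTGGT (core of the RUNX motif), GGAAGT (an ETS core) or TGANTCA (a core bound by BACH and AP-1 factors, which reads the same on both strands); none of these strings contains another.
Ncr1, chr7:4337465-4337764, plus strand: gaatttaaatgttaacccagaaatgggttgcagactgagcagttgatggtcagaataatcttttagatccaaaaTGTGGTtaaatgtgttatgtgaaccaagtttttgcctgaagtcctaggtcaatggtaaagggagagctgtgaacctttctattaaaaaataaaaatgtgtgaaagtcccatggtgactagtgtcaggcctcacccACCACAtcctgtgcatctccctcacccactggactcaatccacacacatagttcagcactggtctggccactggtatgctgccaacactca
Fcer1g, chr1:171234300-171234599, minus strand: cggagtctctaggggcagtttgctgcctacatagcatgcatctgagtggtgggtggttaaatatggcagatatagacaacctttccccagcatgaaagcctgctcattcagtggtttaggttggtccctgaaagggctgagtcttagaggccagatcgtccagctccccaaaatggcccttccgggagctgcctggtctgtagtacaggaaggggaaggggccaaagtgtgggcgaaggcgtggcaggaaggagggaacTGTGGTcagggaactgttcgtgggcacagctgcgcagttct
Syk, chr13:52583187-52583486, plus strand: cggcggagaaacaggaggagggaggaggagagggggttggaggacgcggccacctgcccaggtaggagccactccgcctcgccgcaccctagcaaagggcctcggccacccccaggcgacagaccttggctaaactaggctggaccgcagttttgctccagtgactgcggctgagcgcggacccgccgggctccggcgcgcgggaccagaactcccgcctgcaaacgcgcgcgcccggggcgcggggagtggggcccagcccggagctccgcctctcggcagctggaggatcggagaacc
Zap70, chr1:36761548-36761847, plus strand: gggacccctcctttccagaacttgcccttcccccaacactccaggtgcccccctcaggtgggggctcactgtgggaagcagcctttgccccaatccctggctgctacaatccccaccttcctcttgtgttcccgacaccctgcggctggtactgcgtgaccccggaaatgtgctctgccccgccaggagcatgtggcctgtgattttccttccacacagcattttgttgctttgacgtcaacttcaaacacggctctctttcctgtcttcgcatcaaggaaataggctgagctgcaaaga
The Ncr1 window held TGTGGT at 2 places, starting at -176 on the plus strand and -41 on the minus strand, counted from the start site. The Fcer1g window held it once, at 10 bases past the start, and the Syk and Zap70 windows shown held none of the strings. The 9 genes had 14 windows, and TGTGGT occurred in 5 of these, from Fcer1g, Lat, Ncr1 and Zap70, and in 16.8% of all 32851 RefSeq windows. GGAAGT occurred in 4 of the 14 windows, from Cd247, Hcst, Syk and Zap70, and in 23.8% of all windows. TGANTCA occurred in none of these genes' windows and in 7.81% of all. A match is a string of letters, and says nothing of binding in these cells.

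The deepest contrast among these genes was in Ncr1, the natural cytotoxicity receptor that marks NK cells. In the fraction labelled NK, the 3 cWT libraries were at 229, 198 and 826 CPM and the 3 cKO libraries at 1569.9, 1551 and 1578 CPM. The iNK libraries were at 78.6, 56.1 and 351 CPM in cWT and at 485, 559 and 576 CPM in cKO. In mNK1 they were at 159.9, 182 and 788 CPM in cWT and 1272, 1289 and 1382 CPM in cKO. In each fraction cWT replicates 1 and 2 were far below the rest, cWT replicate 3 lay between, and the cKO libraries were tight and all higher. The mNK2 libraries followed the same order, at 342, 279 and 1129.8 CPM in cWT against 2424, 2395 and 2059 CPM in cKO. The SD within cWT was close to the mean itself, as in the fraction labelled NK (418 ± 354 CPM, n = 3), whereas in cKO it was 14.2 around a mean of 1566 CPM.

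**Figure D1:**
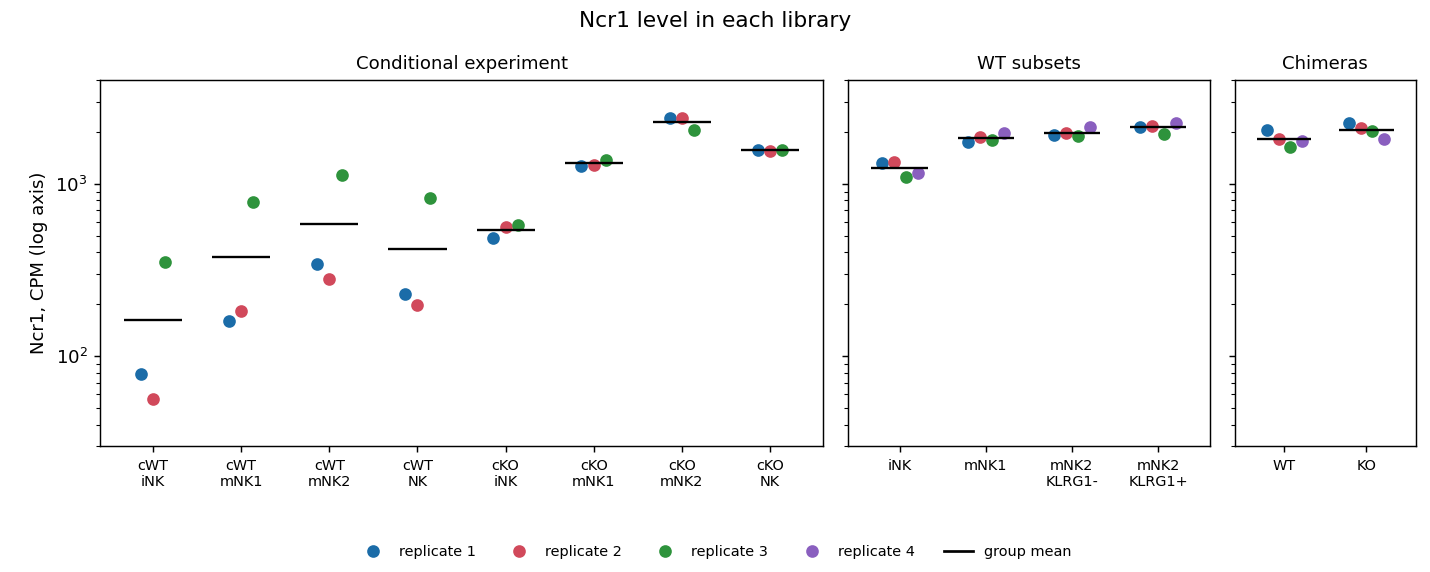
Ncr1 level (CPM, log axis) in each of the 48 libraries, by group; points are libraries coloured by replicate number and bars are group means. In the conditional experiment cWT replicates 1 and 2 sit at 56.1 to 342 CPM, cWT replicate 3 at 351 to 1129.8 CPM, and the cKO libraries at 485 to 2424 CPM; the WT subset libraries lie between 1100.3 and 2240.4 CPM.

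Ncr1 passed the test in no single fraction. The cKO minus cWT difference was 1.91 ± 0.75 (log2, SE) in the fraction labelled NK (edgeR quasi-likelihood test with Benjamini-Hochberg adjustment, adjusted p = 0.417). It was 1.73 ± 0.75 in iNK (edgeR adjusted p = 0.592), 1.80 ± 0.75 in mNK1 (edgeR adjusted p = 0.447) and 1.97 ± 0.75 in mNK2 (edgeR adjusted p = 0.763). Averaged over the iNK, mNK1 and mNK2 stages the difference was 1.84 ± 0.43, and Ncr1 was called higher in cKO (edgeR adjusted p = 0.0333). It was the only one of the 10 genes called in that average, where 2.32% of 12258 genes were called in either direction. This call rested on the libraries entered: leaving out 1 library or 1 cWT replicate number at a time, it was lost in 16 of 21 cases, with adjusted p up to 0.23. It was also lost in a fit of only the 6 groups averaged (edgeR adjusted p = 0.0509). The average counts the libraries of the 3 stages as independent. In cWT the Ncr1 level followed the replicate number in every fraction, so the SE and p-value of the average may be too small. Over the same kind of omissions the difference ran from 1.54 to 2.87 in NK, 1.29 to 2.99 in iNK, 1.44 to 2.94 in mNK1 and 1.64 to 2.91 in mNK2. The upper ends are without cWT replicate 3 in all fractions, where each was called; that number was left out after its intermediate level was seen, so these calls are no support. The locus carries the Cre driver in both labels, and the part of the driver in these values was not tested.

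Within each genotype Ncr1 was lowest in iNK. In cWT the steps from iNK to mNK1 and on to mNK2 were 1.22 ± 0.74 and 0.63 ± 0.73 and were not called (edgeR adjusted p = 0.311 and 0.621). Leaving out libraries moved the first from 0.040 to 2.48. The cKO means were 540.1 ± 48.6, 1315 ± 59.2 and 2293 ± 203 CPM (n = 3) in iNK, mNK1 and mNK2, with no overlap between the stages. The steps were 1.28 ± 0.74 and 0.80 ± 0.73 (log2) in cKO and were not called in the fit over all 8 groups, whose spread includes the cWT libraries (edgeR adjusted p = 0.251 and 0.521). A fit of only the 2 groups compared called both (edgeR adjusted p = 1.11e-05 and 0.000124). In WT mice, Ncr1 rose from 1315, 1347, 1100.3 and 1154 CPM in iNK to 1748, 1878, 1795 and 1972 CPM in mNK1, without overlap (0.59 ± 0.07 log2, edgeR adjusted p = 3.34e-06). Both mNK2 subsets stayed near the mNK1 level, at 1975 ± 106 (KLRG1-) and 2125 ± 130 CPM (KLRG1+, n = 4 each), and neither step passed the test. KLRG1+ mNK2 cells were higher than iNK by 0.79 ± 0.07 (edgeR adjusted p = 5.73e-09). In the chimeras the KO libraries were at 2250, 2104, 2015 and 1825 CPM and the WT libraries at 2044, 1816, 1628 and 1773 CPM. These ranges overlapped, and the difference of 0.17 ± 0.09 did not pass the test (edgeR adjusted p = 0.383).

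**Figure D2:**
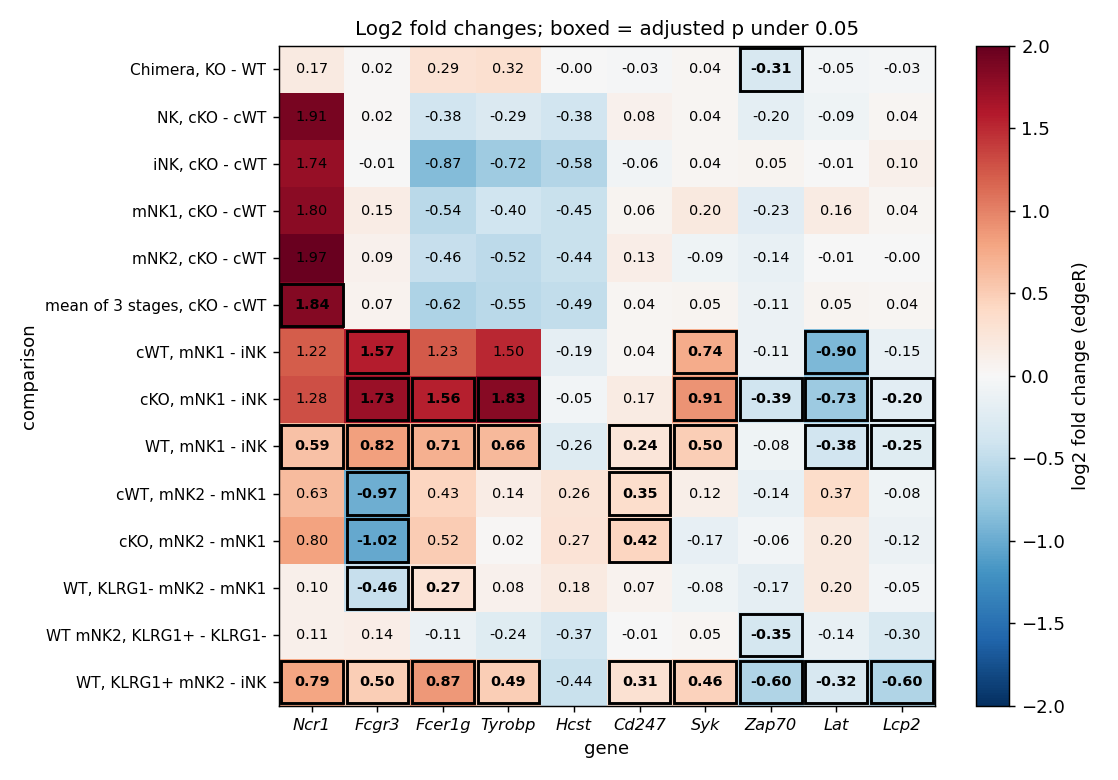
Log2 fold changes of the 10 genes (columns) in 14 comparisons (rows), from edgeR; boxes mark adjusted p under 0.05. Ncr1 is between 1.73 and 1.97 in the 4 cKO minus cWT comparisons with no box, and the boxed increases of Fcgr3, Syk and the decrease of Lat recur in the 3 mNK1 minus iNK comparisons.

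Fcgr3, the receptor for antibody-coated targets, peaked at mNK1. In cWT it was at 131, 115 and 104 CPM in iNK, 389.9, 336 and 310.0 CPM in mNK1, and 186, 185 and 158 CPM in mNK2. The mNK1 libraries were far above both neighbours, with no overlap. Fcgr3 rose from iNK to mNK1 by 1.57 ± 0.11 in cWT (edgeR adjusted p = 1.94e-10) and by 1.73 ± 0.11 in cKO (edgeR adjusted p = 2.49e-11). From mNK1 to mNK2 it fell by 0.97 on the log2 scale in cWT (SE 0.11, edgeR adjusted p = 3.79e-07) and by 1.02 in cKO (SE 0.11, edgeR adjusted p = 1.1e-07). In WT mice the 4 iNK libraries were at 72.5, 78.5, 54.2 and 51.5 CPM, the 4 mNK1 libraries at 117, 108, 114 and 113 CPM, and the KLRG1- mNK2 libraries at 77.7, 85.9, 87.9 and 77.8 CPM. The same rise (0.82 ± 0.12, edgeR adjusted p = 2.71e-05) and fall (-0.46 ± 0.12, edgeR adjusted p = 0.0134) passed the test there. Myeloid cells also express Fcgr3, and a list of 12 myeloid and neutrophil markers stands beside it. From iNK to mNK1, 5 of the 12 were called higher in cWT and 6 in cKO, with Mmp9 lower in both, and from mNK1 to mNK2, 4 were called lower in cWT and 10 in cKO. Their summed level was 39.3 to 119 CPM in conditional iNK, 286 to 1155 CPM in mNK1 and 184 to 394 CPM in mNK2. In the cKO mNK1 libraries the sums were 1155, 838 and 499.6 CPM beside Fcgr3 at 437, 360.4 and 348 CPM. Lyz2 alone was 465.6 of the mean sum of 576.8 CPM in cWT mNK1. In the WT subsets the sum was 2.47 to 20.5 CPM in iNK, 43.2 to 157 CPM in mNK1 and 17.3 to 76.2 CPM in KLRG1- mNK2, so it was highest at the stage where Fcgr3 was highest. In conditional iNK and mNK1, 10 or more of the 12 markers had counts (S100a8 and S100a9 were at 0 in cWT iNK), and the part of such cells in the Fcgr3 values was not tested. Fcgr2b, the inhibitory Fc receptor whose extracellular part closely resembles that of Fcgr3, rose in the same step (1.96 ± 0.14 in cWT), and how reads shared by the 2 genes were assigned is not given in the sources used here.

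**Figure D3:**
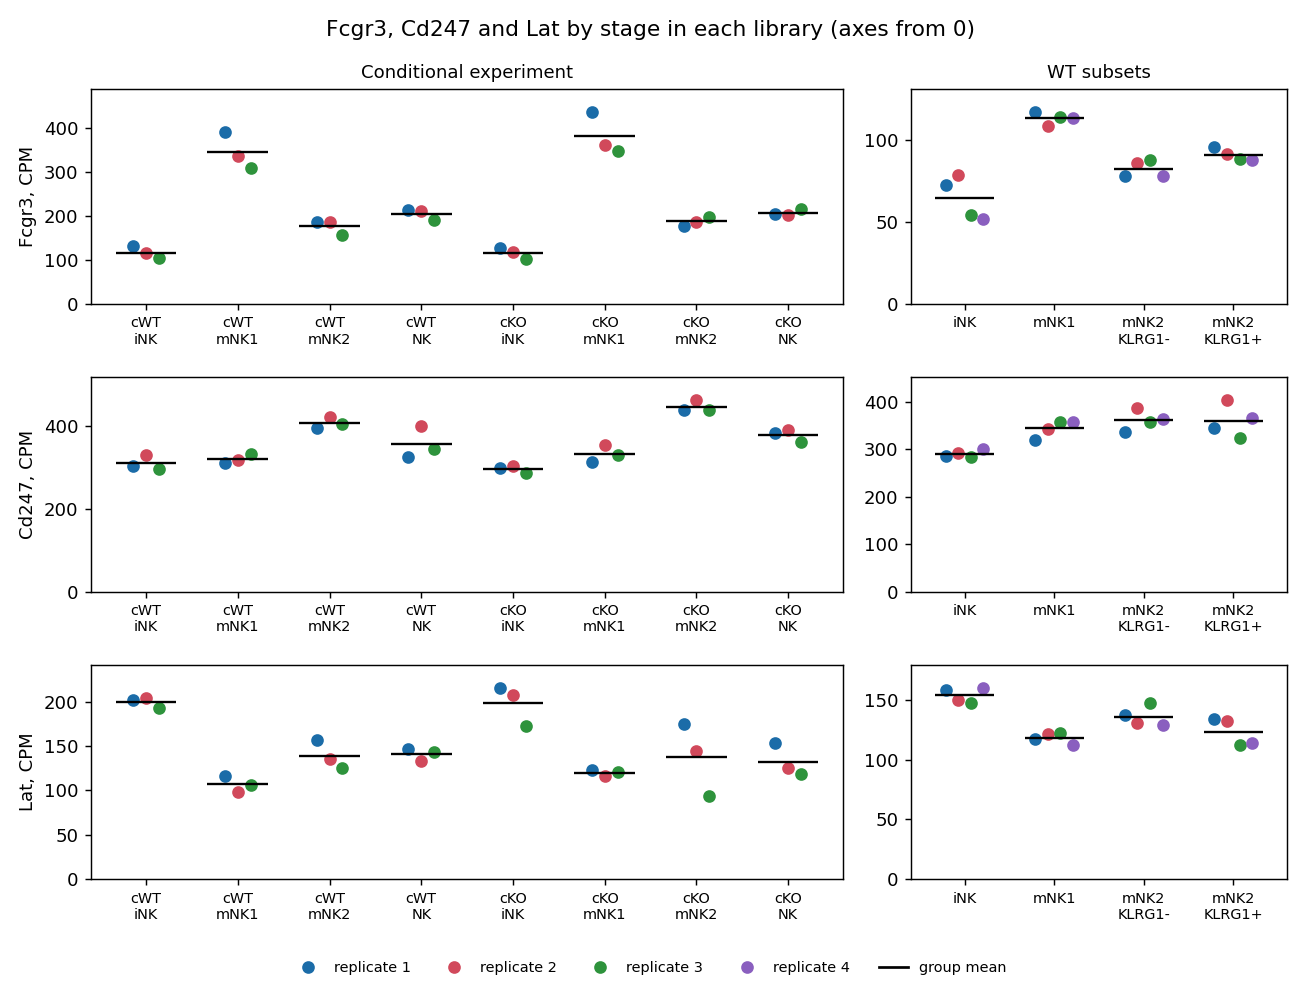
Fcgr3, Cd247 and Lat (CPM, axes from 0, separate scale per panel) in each library of the conditional experiment and the WT subsets; points are libraries coloured by replicate number and bars are group means. Fcgr3 is highest in mNK1 in both experiments (310.0 to 437 CPM and 108 to 117 CPM), and the Lat group mean is highest in iNK (libraries at 172 to 216 CPM and 148 to 160.2 CPM).

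The ITAM adaptors Fcer1g and Tyrobp were the most abundant of the 10 genes per length of transcript in all 14 groups, at 448 to 3753 CPM per kilobase for Fcer1g and 494 to 6396 for Tyrobp. This ranking of group means rests on the division by length. In undivided CPM the Ncr1 mean was above both in every cKO fraction, as in NK (1566 against 939 and 802 CPM). Fcer1g and Tyrobp rose from iNK to mNK1 in WT mice. Fcer1g, the chain shared by NKp46 and CD16, went from 1385, 1438, 1148 and 1099 CPM to 1917, 2234, 2123 and 2036 CPM (0.71 ± 0.08, edgeR adjusted p = 7.22e-07). Tyrobp, the partner of activating Ly49 receptors, went from 2090.2, 2306, 1605 and 1649 CPM to 2667, 3217, 3368 and 2803 CPM (0.66 ± 0.11, edgeR adjusted p = 0.000141). In neither gene did the stages overlap. Fcer1g rose a further 0.27 ± 0.08 into KLRG1- mNK2 (edgeR adjusted p = 0.0329), a call lost when any of 6 of the 8 libraries was left out. Hcst did not pass the test in any comparison, and its WT libraries ranged from 205 to 441 CPM.

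In the conditional experiment the short adaptors varied widely between replicates. The highest library of a group was at least 2-fold above the lowest in 6 of 8 groups for Fcer1g, 7 for Tyrobp and 5 for Hcst, and in no group for Cd247, Syk or Zap70. In cWT mNK2, Fcer1g was at 3298, 1424 and 1071 CPM, Tyrobp at 2565, 964 and 779.9 CPM, and Hcst at 139, 58.2 and 53.0 CPM. In cKO mNK1, Fcer1g was at 754, 672 and 1527 CPM, Tyrobp at 777, 684 and 1504 CPM, and Hcst at 39.5, 38.0 and 75.1 CPM. The 3 genes went up and down together from library to library. All have short transcripts (0.748, 0.564 and 0.442 kb of exon in GENCODE). A short-gene index was therefore computed for each library, as the median log2 CPM of genes under 1000 bases minus that of genes over 3000 bases, without the 10 genes described here. After subtracting group means, the index followed Fcer1g with r = 0.983 and rho = 0.967, Tyrobp with r = 0.992 and rho = 0.981, and Hcst with r = 0.979 and rho = 0.974 over the 24 conditional libraries (permutation within groups, p = 1e-05 for each, the smallest that 100000 permutations can give; adjusted p = 6.7e-05 over 20 relations). Leaving out the 2 libraries farthest on the index left r at 0.98, 0.991 and 0.974. In the 16 WT subset libraries r was 0.943 for Hcst (adjusted p = 0.00015), 0.736 for Tyrobp (adjusted p = 0.031) and 0.505 for Fcer1g (adjusted p = 0.1, permutation). For several other genes the index ran the other way in the conditional libraries: Lcp2 had r = -0.735 (permutation, adjusted p = 0.0049), Syk -0.57 (adjusted p = 0.033) and Cd247 -0.563 (adjusted p = 0.051; rho = -0.57, adjusted p = 0.048). The relation to the index was not tested in the chimeras. There KO replicate 4 had the highest index of the KO libraries (0.32) and the lowest Tyrobp and Fcer1g (2787 and 2189.6 CPM). Chimera WT replicate 1 had the lowest index of the WT libraries (-0.049) and the highest Tyrobp and Fcer1g (3195 and 2849 CPM). Hcst did not share this, as KO replicate 4 had its highest KO level (315.5 CPM).

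**Figure D4:**
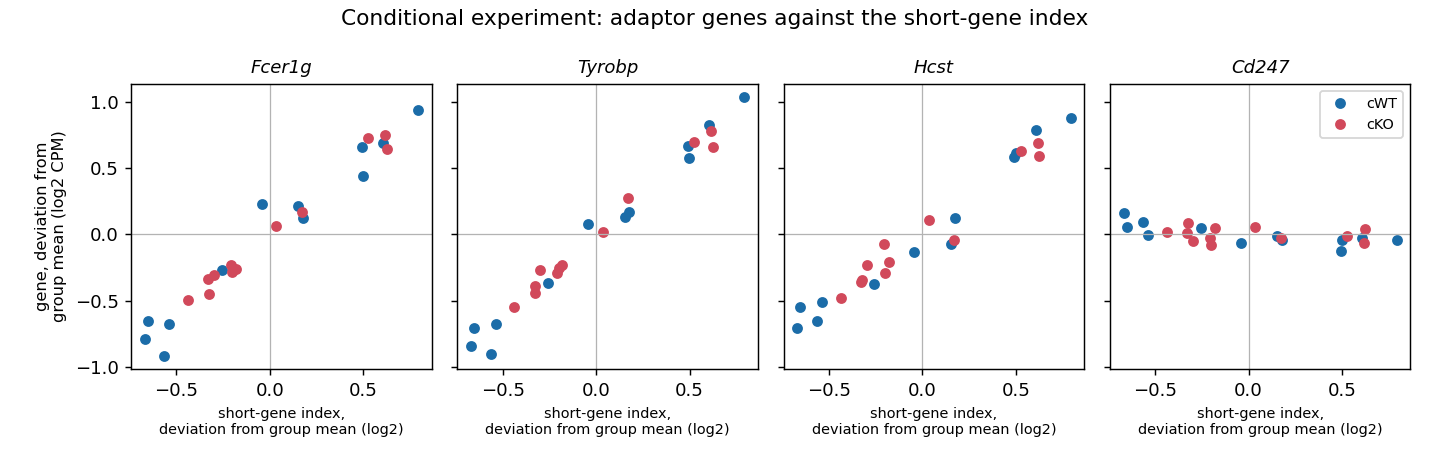
Deviation of each conditional library from its group mean for Fcer1g, Tyrobp, Hcst and Cd247 (log2 CPM) against the same deviation of the short-gene index (log2); points are the 24 libraries, coloured by label. The first 3 genes lie along a rising line with r = 0.983, 0.992 and 0.979, while Cd247 stays within a narrow band around 0 with r = -0.563.

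The index differed between the labels as well, with means of 0.17 to 0.61 in the cWT fractions and -0.22 to -0.0073 in the cKO fractions. In the 4 fractions the cKO minus cWT differences of Fcer1g ran from -0.87 to -0.38, those of Tyrobp from -0.72 to -0.29 and those of Hcst from -0.58 to -0.38, and none was called. With the index as a covariate, a choice made after these values were seen, 11 of these 12 differences were positive, and Tyrobp in mNK1 was called higher in cKO (0.38, edgeR adjusted p = 0.00541). In the stage average the covariate also called Tyrobp higher (0.17, edgeR adjusted p = 0.0416), and the Ncr1 call was lost (1.69, edgeR adjusted p = 0.0603). The stage step of Fcer1g from iNK to mNK1 was 1.23 ± 0.54 in cWT (edgeR adjusted p = 0.137) and 1.56 ± 0.54 in cKO (edgeR adjusted p = 0.0495), and that of Tyrobp 1.50 ± 0.58 (edgeR adjusted p = 0.0843) and 1.83 ± 0.58 (edgeR adjusted p = 0.031). Both cKO calls depended on the libraries entered: Fcer1g lost it in 4 of 6 fits that left out 1 library (adjusted p up to 0.222) and Tyrobp in 3 of 6 (up to 0.138). Fcer1g also lost it with RLE scaling, without the low-count filter and in a fit of only the compared groups (edgeR adjusted p = 0.0503, 0.0767 and 0.0732). With the covariate the cWT steps were 1.01 and 1.27, both called (edgeR adjusted p = 7.13e-11 and 1.8e-15). Tyrobp and Hcst are neighbours transcribed toward each other, and whether counting used strand is not given in the sources used here. Myeloid cells also express Fcer1g and Tyrobp, and the higher sum of their markers in mNK1 given above stands beside these steps too. Fcer1a, the IgE-binding partner of Fcer1g in mast cells and basophils, rose from 35.5 ± 7.77 to 124 ± 36.5 CPM in cWT mNK1 (edgeR adjusted p = 0.0026), and its part in the Fcer1g values was not tested.

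In the chimeras no adaptor passed the edgeR test of group means, and the KO and WT ranges of Tyrobp and Fcer1g overlapped. Tyrobp was at 4024, 4012, 3608 and 2787 CPM in KO and 3195, 2651, 2856 and 2876 CPM in WT (0.32 ± 0.11, edgeR adjusted p = 0.118). Fcer1g was at 3145, 3207, 2689 and 2189.6 CPM in KO and 2849, 2116, 2126 and 2075 CPM in WT (0.29 ± 0.12, edgeR adjusted p = 0.245). Replicate 4 was the low library among the KO values of both genes, and without it Tyrobp was called (0.43, edgeR adjusted p = 0.00236). That library also had the highest short-gene index of the KO libraries (0.32), and the part of the index in these values was not tested. Tyrobp was also called by DESeq2 (0.33, adjusted p = 0.0181) and by edgeR without the low-count filter (0.31, adjusted p = 0.0487). With a replicate block, edgeR called both Tyrobp (0.31, adjusted p = 0.0152) and Fcer1g. Whether KO and WT libraries of the same number came from the same mouse is not given in the sources used here. The summed myeloid and neutrophil markers, all 12 of which had counts, were 183 to 467 CPM in KO and 35.1 to 61.4 CPM in WT, and their part in these values was not tested.

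Cd247, the CD3 zeta chain with which NKp46 also pairs, was steadier. In cWT it went from 310, 318 and 333 CPM in mNK1 to 396, 423 and 407 CPM in mNK2, without overlap. It rose in that step by 0.35 ± 0.07 in cWT (edgeR adjusted p = 0.00106) and by 0.42 ± 0.07 in cKO (edgeR adjusted p = 0.000117), where mNK2 libraries were at 439 to 465 CPM. In WT mice it rose earlier, from 284 to 301 CPM in iNK to 319 to 357 CPM in mNK1 (0.24 ± 0.08, edgeR adjusted p = 0.0373), a call lost in 7 of 8 fits that left out 1 library (adjusted p up to 0.124). KLRG1+ mNK2 cells were above iNK by 0.31 ± 0.08 (edgeR adjusted p = 0.00283).

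Between WT iNK and KLRG1+ mNK2 the 2 ITAM kinases took opposite courses, but the single steps at which each was called differed. Syk, the family member that is also active in B and myeloid cells, was at 44.7, 56.9 and 52.5 CPM in cWT iNK and 89.1, 76.9 and 92.1 CPM in cWT mNK1. The stages did not overlap, and Syk rose by 0.74 ± 0.12 in cWT (edgeR adjusted p = 7e-05) and by 0.91 ± 0.12 in cKO (edgeR adjusted p = 3.9e-06). In WT mice iNK libraries were at 153, 116, 109 and 152 CPM and mNK1 libraries at 191, 174, 183 and 197 CPM (0.50 ± 0.11, edgeR adjusted p = 0.00501). In the conditional step the myeloid marker sum was 39.3 to 119 CPM in iNK against 286 to 1155 CPM in mNK1 and the B cell sum was 457 to 1278 against 29.1 to 60.5 CPM, and the part of such cells in the Syk values was not tested. No later step of Syk passed the test. Zap70, better known from T cells, went the other way along the WT subsets. It was at 341, 362, 351 and 325 CPM in iNK, 331, 325, 309.6 and 340.4 CPM in mNK1, and 265, 319, 291 and 283 CPM in KLRG1- mNK2. The KLRG1+ mNK2 libraries were lowest, at 241, 219, 238 and 211 CPM, with no overlap with any other subset. Zap70 fell by 0.35 on the log2 scale between the KLRG1- and KLRG1+ subsets (SE 0.07, edgeR adjusted p = 0.0118), and by 0.60 between iNK and KLRG1+ mNK2 (SE 0.07, edgeR adjusted p = 8.03e-07). It was the only one of the 10 genes called between the mNK2 subsets, where 1.36% of 11051 genes were called in either direction. That call was lost in 3 of 8 fits that left out 1 library, with adjusted p up to 0.0697. In the conditional experiment Zap70 fell from iNK to mNK1 in cKO (-0.39 ± 0.10, edgeR adjusted p = 0.00722), whereas in cWT the step was -0.11 ± 0.10 (edgeR adjusted p = 0.538). The difference between these steps was tested as an interaction and was not called.

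In the chimeras Zap70 was the only one of the 10 genes called in the reported fit, where 5% of 10614 genes were called in either direction. It was at 231, 236, 251 and 251 CPM in KO and 317, 305, 289.8 and 292 CPM in WT. All KO libraries were below all WT libraries, and Zap70 fell by 0.31 on the log2 scale (SE 0.07, edgeR adjusted p = 0.00413). The call held in all 8 fits that left out 1 library, with adjusted p from 0.00443 to 0.0269. Syk was at 153 to 192 CPM in KO and 159 to 184 CPM in WT (0.04 ± 0.08, edgeR adjusted p = 0.894). T cells express Zap70, and the 10 T cell markers, all with counts, summed to 87.9 to 102 CPM in KO and 162 to 236 CPM in WT. In the WT subsets their sum was 886 to 1081 CPM in iNK, 181 to 189.7 in mNK1, and 24.6 to 48.1 CPM in the KLRG1- and KLRG1+ mNK2 subsets. The mean sum was 42.9 CPM in KLRG1- and 31.8 CPM in KLRG1+ mNK2, where Zap70 was lower, with Cd5 at 0 in both subsets, Cd8a at 0 in KLRG1- and Cd4 at 0 in KLRG1+. The part of T cells in these differences was not tested. Stage markers differed between the chimera genotypes too: of 8 listed, 3 were called higher and 3 lower in KO. Klrg1, a receptor of mature NK cells, was at 808 ± 65.0 against 442 ± 12.1 CPM (edgeR adjusted p = 5.17e-08), and Cd27, a receptor of less mature ones, at 66.6 ± 7.61 against 116 ± 16.7 CPM (edgeR adjusted p = 1.36e-05). The part of such a stage difference in the Zap70 values was not tested. In these bulk samples fewer cells of a type and less RNA per cell cannot be told apart. In the conditional fractions the cKO minus cWT differences of Zap70 were -0.20, 0.05, -0.23 and -0.14 in NK, iNK, mNK1 and mNK2, and none was called.

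**Figure D5:**
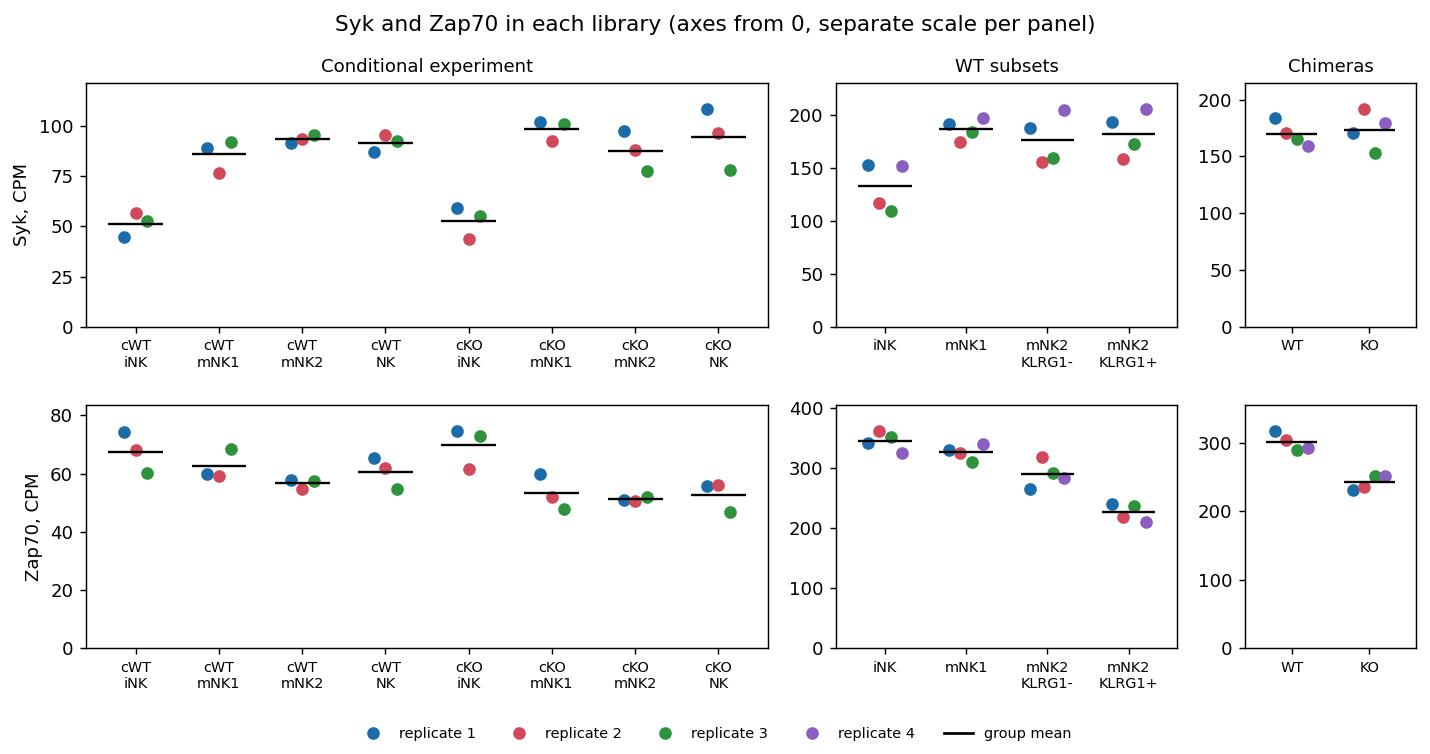
Syk (top) and Zap70 (bottom) in each library (CPM, axes from 0, separate scale per panel); points are libraries coloured by replicate number and bars are group means. Syk is lowest in iNK (43.9 to 59.2 CPM in the conditional experiment), and Zap70 is lowest in KLRG1+ mNK2 among WT subsets (211 to 241 CPM) and lower in chimera KO than in chimera WT libraries.

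The balance of the 2 kinases within a library does not depend on scaling between libraries. The log2 ratio of Syk to Zap70 counts was -1.40 ± 0.31 in WT iNK, -0.81 ± 0.06 in mNK1, -0.72 ± 0.28 in KLRG1- and -0.32 ± 0.20 in KLRG1+ mNK2 (SD, n = 4). The iNK libraries did not overlap with mNK1, KLRG1- mNK2 or KLRG1+ mNK2, whereas neighbouring later subsets overlapped. The ratio was not tested between iNK and KLRG1- mNK2. In the chimeras the ratio was -0.48 ± 0.17 in KO and -0.83 ± 0.04 in WT, also without overlap. Each of the 3 separated comparisons that were tested reached the smallest p that 4 libraries against 4 allow (exact permutation, 2-sided, p = 0.0286). After adjustment over the 15 ratio comparisons made, this permutation p was 0.0612. The ratios of Fcer1g to Cd247 and Tyrobp to Hcst were higher in WT mNK1 than in iNK by 0.48 and 0.91 with the same exact permutation p-values. In the conditional experiment the Syk to Zap70 ratio was -0.40 ± 0.29 in cWT iNK and 0.46 ± 0.10 in cWT mNK1, and -0.41 ± 0.08 and 0.90 ± 0.16 in cKO (n = 3).

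Of the scaffolds, Lat, the membrane anchor for phospholipase C and Grb2, had its highest group means in iNK. In cWT it was at 202, 204 and 192 CPM in iNK and 117, 98.4 and 106 CPM in mNK1, and in cKO at 216, 207 and 172 CPM against 123, 117 and 121 CPM. It fell by 0.90 on the log2 scale in cWT (SE 0.15, edgeR adjusted p = 0.000153) and by 0.73 in cKO (SE 0.15, edgeR adjusted p = 0.00102). In WT mice it fell by 0.38 (SE 0.09, edgeR adjusted p = 0.00395), from 148 to 160.2 CPM in iNK to 112 to 122 CPM in mNK1. Lcp2, the cytosolic scaffold, decreased in smaller steps along the WT subsets. Its libraries were at 267 to 299 CPM in iNK, 217 to 246 CPM in mNK1, 198 to 242 CPM in KLRG1- and 169 to 189 CPM in KLRG1+ mNK2. Lcp2 fell between iNK and KLRG1+ mNK2 by 0.60 (SE 0.08, edgeR adjusted p = 1.7e-06) and between iNK and mNK1 by 0.25 (SE 0.08, edgeR adjusted p = 0.0402). The second call was lost in 5 of 8 fits that left out 1 library, with adjusted p up to 0.127. T cells also express Lat and Lcp2. The T cell marker sum was 1648 to 2442 CPM in conditional iNK against 263 to 345 CPM in mNK1, with all 10 markers above 0 in both, and the B cell sum 457 to 1278 against 29.1 to 60.5 CPM. The part of these cells in the fall of Lat, Lcp2 and Zap70 from iNK was not tested.

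Across the 10 genes, the step from iNK to mNK1 called 8 in WT mice, 6 higher (Ncr1, Fcgr3, Fcer1g, Tyrobp, Cd247 and Syk) and 2 lower (Lat and Lcp2), where 10.5% of 11051 genes were called (6.39% higher and 4.14% lower). Hcst (-0.26) and Zap70 (-0.08) did not pass. The same step called 3 in cWT (Fcgr3 and Syk higher, Lat lower) against 18.5% of 12258 genes (10.2% higher, 8.29% lower), and 7 in cKO (Fcgr3, Fcer1g, Tyrobp and Syk higher; Zap70, Lat and Lcp2 lower) against 22.7% (11.3% higher, 11.4% lower). Leaving out 1 library kept 3 to 6 of the cKO calls: Lcp2 lost its call in 5 of 6 such fits and Zap70 in 1, beside the losses of Fcer1g and Tyrobp given above. The median log2 difference of the 10 was 0.37 in WT, 0.39 in cWT and 0.54 in cKO, beside -0.01, 0.02 and 0.01 for all genes tested. The 10 NK identity markers had medians of 0.59, 0.75 and 1.05 in the same step, with 8, 7 and 9 called higher and 0 lower. The rises are therefore not particular to the genes described here, and the part of a differing share of NK cells in them was not tested. From mNK1 to mNK2, 2 were called in cWT, where 20.2% of genes were called (7.7% higher, 12.5% lower), and in cKO, where 21.3% were (7.09% higher, 14.3% lower), in both cases Cd247 higher and Fcgr3 lower. From WT mNK1 to KLRG1- mNK2, Fcer1g was called higher and Fcgr3 lower, where 7.29% of genes were called (2.18% higher, 5.11% lower). Between iNK and KLRG1+ mNK2, 9 were called (6 higher, 3 lower), where 30.6% of genes were called (15% higher, 15.6% lower).

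Between the labels of the conditional experiment none of the 10 genes was called by edgeR or DESeq2 in the NK, iNK, mNK1 or mNK2 fraction, where edgeR called 0.571%, 0.294%, 0.571% and 0.261% of 12258 genes. At an unadjusted p under 0.05, edgeR passed 1, 1, 2 and 1 of them, which were Ncr1 in each fraction and Zap70 in mNK1. The shares of all genes given here are at the adjusted threshold. The share at the unadjusted one is not given, so these counts cannot be set against it. None of the 10 was called by edgeR or DESeq2 for a stage step that differed between cKO and cWT (0 of 10 at an unadjusted p under 0.05), where 0% and 0.00816% of genes were called for the first and second step. Outside Ncr1, Fcer1g, Tyrobp and Hcst, the differences in the 4 fractions lay between -0.23 and 0.20. Their 95% intervals, from the t distribution of the fit, lay between -0.45 and 0.47, as in mNK1 Syk at 0.20 (-0.05 to 0.45).

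Beside the 10 genes, 16 receptors were listed, not all of which pair with the adaptors, and 10 were tested in the WT subsets. From iNK to mNK1, 5 were called higher and 2 lower (median 0.33, beside -0.01 for all genes, of which 6.39% were called higher and 4.14% lower). Klrb1c, the NK1.1 receptor that signals through Fcer1g, rose by 0.57 ± 0.07 (edgeR adjusted p = 7.26e-06), and Cd160 fell from 582 ± 74.3 to 265 ± 23.8 CPM (edgeR adjusted p = 3.13e-08). Cd226, the receptor DNAM1, fell by 1.10 (SE 0.13, edgeR adjusted p = 3.23e-06). In the chimeras, of 11 receptors tested, Cd160 was lower in KO (116 ± 13.9 against 189 ± 22.9 CPM, edgeR adjusted p = 3.48e-05) and Cd300ld, a myeloid receptor, was higher, at 1.88 against 0.446 CPM (median 0.07, beside -0.01 for all genes, of which 5% were called).

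Of 8 other Fc receptors, 6 were tested in the chimeras and 3 were called lower in KO, among them Fcer2a (CD23), at 1.18 ± 0.969 against 11.1 ± 4.72 CPM (edgeR adjusted p = 0.00125), and Fcrla. B cells express both genes, and the B cell marker sum, which includes Fcrla, was 10.3 to 31.9 CPM in KO and 62.3 to 192 CPM in WT, so their part in these counts was not tested. The list's median was -1.55, beside -0.01 for all genes, of which 5% were called. In the conditional stage average, where 2.32% of all genes were called, 3 of 8 were called higher in cKO, including Fcmr (0.81 ± 0.16, edgeR adjusted p = 0.00681), beside B cell sums of 712 to 1278 CPM in cKO iNK and 457 to 725 in cWT iNK.

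Among 12 Src and Tec family kinases, 11 were tested between WT iNK and KLRG1+ mNK2, and 1 was called higher (Txk, 0.51 ± 0.07) and 5 lower, including Fgr (-1.36 ± 0.16), where 15% of all genes were called higher and 15.6% lower. Of 29 downstream effectors, 28 were tested in the WT subsets, and 7 were called higher and 4 lower from iNK to mNK1 (median 0.13, beside -0.01 for all genes, of which 6.39% were called higher and 4.14% lower). Lat2, the relative of Lat found in myeloid and B cells, rose from 237 ± 28.6 to 325 ± 13.03 CPM in this step (edgeR adjusted p = 0.00133) and was higher in chimera KO at 471 ± 66.7 against 377 ± 30.6 CPM (edgeR adjusted p = 0.0371). Its direction was opposite to that of Lat in the stage step. The myeloid marker sums given above were also higher in WT mNK1 than in iNK and in chimera KO than in WT, and their part in the Lat2 values was not tested. Prkcd, a protein kinase C, rose from 62.8 ± 8.98 to 103 ± 7.55 CPM, and Grap2, an adaptor that links Lat to Lcp2, fell from 44.3 ± 5.19 to 22.2 ± 3.18 CPM (edgeR adjusted p = 9.1e-05). Plcg2, the phospholipase that Syk activates, was higher in KLRG1+ mNK2 than in iNK (300.0 ± 24.6 against 148 ± 17.6 CPM), and Rasgrp1 was lower (78.7 ± 4.82 against 187 ± 8.53 CPM). The T cell marker sums given above were highest in WT iNK. The part of T cells in the falls of Grap2, Rasgrp1, Cd160 and Cd226 from iNK was not tested.

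Of 20 genes that restrain this signalling, 19 were tested. In the chimeras 2 were called lower in KO and none higher: Dgka, the kinase that removes diacylglycerol, at 135 ± 19.3 against 204 ± 5.04 CPM (edgeR adjusted p = 5.73e-05), and Ubash3a at 36.9 ± 5.01 against 53.8 ± 3.45 CPM (edgeR adjusted p = 0.00389). The list's median was -0.05, beside -0.01 for all genes, of which 5% were called. Dgka also fell from iNK to mNK1 in cWT (-1.07 ± 0.09), cKO (-1.23 ± 0.09) and WT (-0.46 ± 0.12). Between WT iNK and KLRG1+ mNK2, 7 were called higher and 7 lower, where 15% and 15.6% of all genes were, with Inpp4b, a phosphoinositide phosphatase, going from 28.8 ± 4.82 to 0.848 ± 0.716 CPM. T cells express Dgka and Ubash3a as well, beside the T cell marker sums given above.

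Over the 14 group means, centred within each experiment, each gene was set beside the 9057 genes kept in all 3 fits with a mean of at least 5 CPM. The 3 profiles most like Ncr1 were those of Sqstm1 (r = 0.927), Pdlim2 (0.924) and Cpne7 (0.905). For Fcgr3 they were Eif4e3 (0.966), P2ry14 (0.964) and Nt5c3 (0.959). For Syk they were Pxn (0.973), Il10ra (0.965) and Vcl (0.962), and for Zap70 they included Wdr18 (0.965) and Dnajc27 (0.949). These are descriptions over 14 points that share libraries and depth.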

How the data were processed

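Total RNA from sorted spleen NK cells was made into SMARTer libraries, per the labels' protocols. The deposited files hold raw read counts per gene symbol. STAR 2.5.0, FastQC and the mm9 genome are named in the submitters' processing notes; the annotation and strand setting are not given in the sources used here. Each experiment was fitted alone with edgeR 4.0.16 (R 4.3.3): filterByExpr, TMM scaling, a robust quasi-likelihood fit of group means and Benjamini-Hochberg adjustment over all genes kept, with calls at adjusted p under 0.05. CPM use TMM-scaled totals. At 8557018 to 21029172 counts per library a count of 3, the limit a count of 0 allows, equals 0.143 to 0.351 CPM, and this covers counting error only. Ratios within a library used counts plus 0.5 and exact permutation. DESeq2 1.42.0, RLE scaling, no filter, a replicate block, fits of only the compared groups and leaving out libraries were alternatives; the short-gene covariate, the block within genotype and the omission of whole cWT replicate numbers were added after the data were seen. The edgeR step was tested on simulated data. No 2 libraries of a group held identical counts. Exon lengths came from GENCODE M21. The 10 genes and all lists were chosen with earlier results of these data known. All 10 genes are named in every comparison; from each other list up to 2 called genes per direction with the smallest p were eligible, with Bach2 as the check of the target and the 3 profiles most like Ncr1, Fcgr3, Syk and Zap70. A few results under this rule are not reported here.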

Additional observations from a re-analysis of the deposited data

Results flagged for a closer look

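In groups of 4 libraries, 60 sets of values (10 genes in 6 groups) were examined for 1 library far from the other 3, of which chance flags about 1 in 20, and 3 stood out. Lcp2 in WT iNK replicate 1 was at 298.9 CPM, above 266.8 to 271.6 CPM in the others. Fcer1g in chimera WT replicate 1 was at 2849.3 CPM, above 2074.6 to 2126.0 CPM in the others. Cd247 in chimera WT replicate 4 was at 288.6 CPM, below 325.9 to 329.0 CPM in the others. The conditional groups of 3 libraries were not examined in this way.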

How the results depend on the processing

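Values below are in the order given, with the value of the reported fit in parentheses; the cause was not tested. Genes called for cKO minus cWT in NK, iNK, mNK1 and mNK2 (70, 36, 70 and 32) were 150, 79, 146 and 67 with the short-gene covariate and 128, 82, 126 and 69 by DESeq2. Fits of only the compared groups gave 11, 5 and 12 in NK, iNK and mNK1, and a replicate block 67 in iNK and 62 in mNK2. For the cKO against cWT difference of the first stage step (0 genes called) the covariate gave 8, DESeq2 4 and a block within genotype 4. For the second step (1) the covariate gave 0, DESeq2 22, the compared groups 0, the block 16 and the block within genotype 31. Between KLRG1+ and KLRG1- mNK2 (150) DESeq2 called 256. Of the 10 genes, the chimera comparison (1) called 2 without the filter, 3 with the block and 2 by DESeq2. The mNK1 genotype comparison (0) called 1 with the covariate, and the stage average (1) called 0 in the compared groups. From iNK to mNK1 in cWT (3) the covariate called 6 and the block within genotype 5. Ncr1 was called under that block in both cWT steps (1.29 and 0.74, edgeR adjusted p = 2.25e-07 and 0.000129). From mNK1 to mNK2 the covariate called 5 and the block within genotype 4 in cWT (2), and 5 with the covariate in cKO (2). Between the mNK2 subsets (1), the block, the covariate and DESeq2 each called 2.

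Signs that reversed with the covariate were cKO minus cWT of Fcer1g and Hcst in NK (0.098 and 0.054), Tyrobp and Hcst in iNK (0.040 and 0.054), Fcer1g, Tyrobp and Hcst in mNK1 (0.15, 0.38 and 0.22), in mNK2 (0.10, 0.092 and 0.067) and in the stage average (0.026, 0.17 and 0.11), and Hcst between KLRG1+ mNK2 and iNK (0.12).

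No paired reading was adopted: in no comparison did all same-numbered libraries correlate above 0.1, although in the chimeras and in both comparisons that involve KLRG1- mNK2 8 of 8 libraries correlated best with their own number, a hint from the data. Calls that changed with the replicate block (edgeR) were chimera Tyrobp 0.31 (adjusted p = 0.0152, with Fcer1g also called), cWT mNK2 minus mNK1 Lat 0.37 (adjusted p = 0.0267), KLRG1+ minus KLRG1- Lcp2 -0.30 (adjusted p = 0.0416) and KLRG1+ mNK2 minus iNK Hcst -0.42 (adjusted p = 0.0103), all gained, and cKO mNK1 minus iNK Fcer1g 1.49 (adjusted p = 0.0657), lost.

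Leaving out 1 library or 1 cWT replicate number gave 383 to 672 genes called (1 to 3 of the 10) in the chimeras, 29 to 69 (0 to 1) in NK, 5 to 25 (0 to 1) in iNK, 23 to 92 (0 to 1) in mNK1, 16 to 27 (0 to 1) in mNK2 and 134 to 340 (0 to 1) in the stage average. Stage steps gave 1381 to 2010 (3 to 4) and 1437 to 2526 (2 to 3) in cWT, 2297 to 2573 (3 to 6) and 2019 to 2341 (2 to 3) in cKO, and their differences 0 to 1 and 0 to 17 (0 of the 10). WT subsets gave 863 to 1309 (6 to 7) from iNK to mNK1, 612 to 690 (1 to 2) from mNK1 to KLRG1- mNK2, 107 to 185 (0 to 2) between mNK2 subsets and 2948 to 3368 (9 to 10) from iNK to KLRG1+ mNK2. The cKO minus cWT difference of Fcer1g ran from -0.891 to 0.000814 in NK, and in mNK2 Fcer1g ran from -0.747 to 0.175, Tyrobp from -0.819 to 0.199 and Hcst from -0.687 to 0.142, turning positive without cWT replicate 1. The cWT step from mNK1 to mNK2 ran from -0.278 to 1.81 for Ncr1 and from -0.203 to 0.719 for Fcer1g. RLE scaling moved no count of calls by over 1.5 times. With 3 or 4 libraries per group, differences within the spread between replicates were not detectable.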
